A study of Homo sapiens with 9 samples.

Results

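The Wnt ligands, their Frizzled receptors, the receptors LRP5, LRP6, RYK, ROR1 and ROR2, and the ligand-processing proteins PORCN and WLS were followed in HKC-8 cells, a long-established line from human proximal tubule epithelium. Genes entered by symbol, as WNT or FZD followed by a number (with A or B where the ligand has one), plus the 7 names above. The set was chosen with earlier results of these data known. The choice gave 36 of the 20323 genes in the deposited table: 19 ligands, 10 Frizzleds, 5 other receptors and 2 secretion genes. Poly(A) RNA had been sequenced in 9 libraries, 3 in each of 3 groups. By their labels, control cells carried the empty plasmid pcDNA3, the cells labelled Wnt1 carried a plasmid for the ligand Wnt1, and the cells labelled Wnt1_KP6 carried that plasmid and were given KP6, a peptide from the kidney protein Klotho. All groups are the same line, and all 9 libraries have the batch label 1. The labels used here give no plasmid promoter, peptide dose or time, and do not state that replicates were separate cultures. The p-values therefore describe the spread among these libraries, part or all of which may be technical.

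Wnt proteins are lipid-modified secreted signals. PORCN attaches the lipid in the endoplasmic reticulum, and WLS carries the modified ligand to the cell surface. On the receiving cell a Frizzled binds the lipid, and LRP5 or LRP6 joins it as co-receptor to stabilise beta-catenin, while ROR1, ROR2 and RYK are single-pass receptors known mainly from beta-catenin-independent responses. In the kidney, Wnt ligands shape nephron and medulla formation, are quiet in the healthy adult tubule and return after injury.

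Libraries held 21199078 to 27507623 expected counts, and 14915 to 15225 genes had at least 1 count. Keratins of simple epithelia (KRT8 at 183 to 249 FPKM, fragments scaled to gene length and library size, and KRT18 at 223 to 288) and the renal factor PAX8 (161 to 275 FPKM) were high, while 6 of 18 proximal tubule markers, among them LRP2 and SLC34A1, had at most 3 counts in every library. CDH1 was listed at 0 to 0.079 FPKM. None of 5 endothelial markers reached 1 FPKM throughout, and of the leukocyte markers PTPRC and CD3E were at 0 while CD68, which many cell types express, was at 18 to 34.7 FPKM. In bulk RNA, fewer cells of a type and less RNA per cell cannot be told apart. 

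WNT1 (chromosome 12, 48978453 to 48981676, hg38), the gene named by the plasmid, had 0 counts in each of the 3 control libraries and 0 in each of the 3 labelled Wnt1. The libraries labelled Wnt1_KP6 had 1, 2 and 0 counts. Over a group, a count of 0 allows up to 0.0376 CPM (counts scaled to library size) in control and 0.0413 CPM in the libraries labelled Wnt1, counting error only. The transcript therefore gives no check of the labels, and each direction below follows the labels alone.

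Of the 36 genes, 12 were at 1 FPKM or more in all 9 libraries, a level that 53.2% of all genes in the table reached. A further 11 were low, and 13 had at most 3 counts in every library. The last class held 11 of the 19 ligands, against 1 of 10 Frizzleds (FZD10), 1 of 5 other receptors (ROR2) and neither secretion gene. Transcripts of Frizzleds, of both beta-catenin co-receptors and of both secretion genes were thus present, beside few ligands. WNT6, WNT7A, WNT8A, WNT9B and FZD10 were at 0 in every library, which allows up to 0.109 to 0.142 CPM per library. WNT1, WNT2, WNT3A, WNT8B, WNT10A, WNT11, WNT16 and ROR2 had between 0 and 3 counts in a library. The number at 1 FPKM or more became 13 with a minimum of 0.5 FPKM and 10 with a minimum of 2 FPKM.

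Levels between genes are compared here as FPKM, which is scaled by the authors to gene length. WLS (38.2 FPKM on average over the 9 libraries) and the atypical receptor RYK (36.4) were at the top, followed by FZD6 (25.7), WNT7B (13.9), LRP6 (12.2), FZD2 (7.39) and FZD1 (6.49). LRP5 (4.38), PORCN (3.94), FZD5 (3.65), WNT3 (1.95) and ROR1 (1.78) closed the expressed set, whose levels can be set beside the median of 14.1 FPKM over all genes that reached 1 FPKM throughout. Only 2 steps in this order had ranges that did not overlap across libraries, RYK over FZD6 and FZD6 over WNT7B, each in 9 of 9 libraries. The ranges of every other pair of neighbours overlapped, although LRP6 was above FZD2 and FZD1 above LRP5 in 9 of 9 libraries, and PORCN above FZD5 in 8. WLS was above RYK in 7 libraries, and WNT3 above ROR1 in 5.

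**Figure D1:**
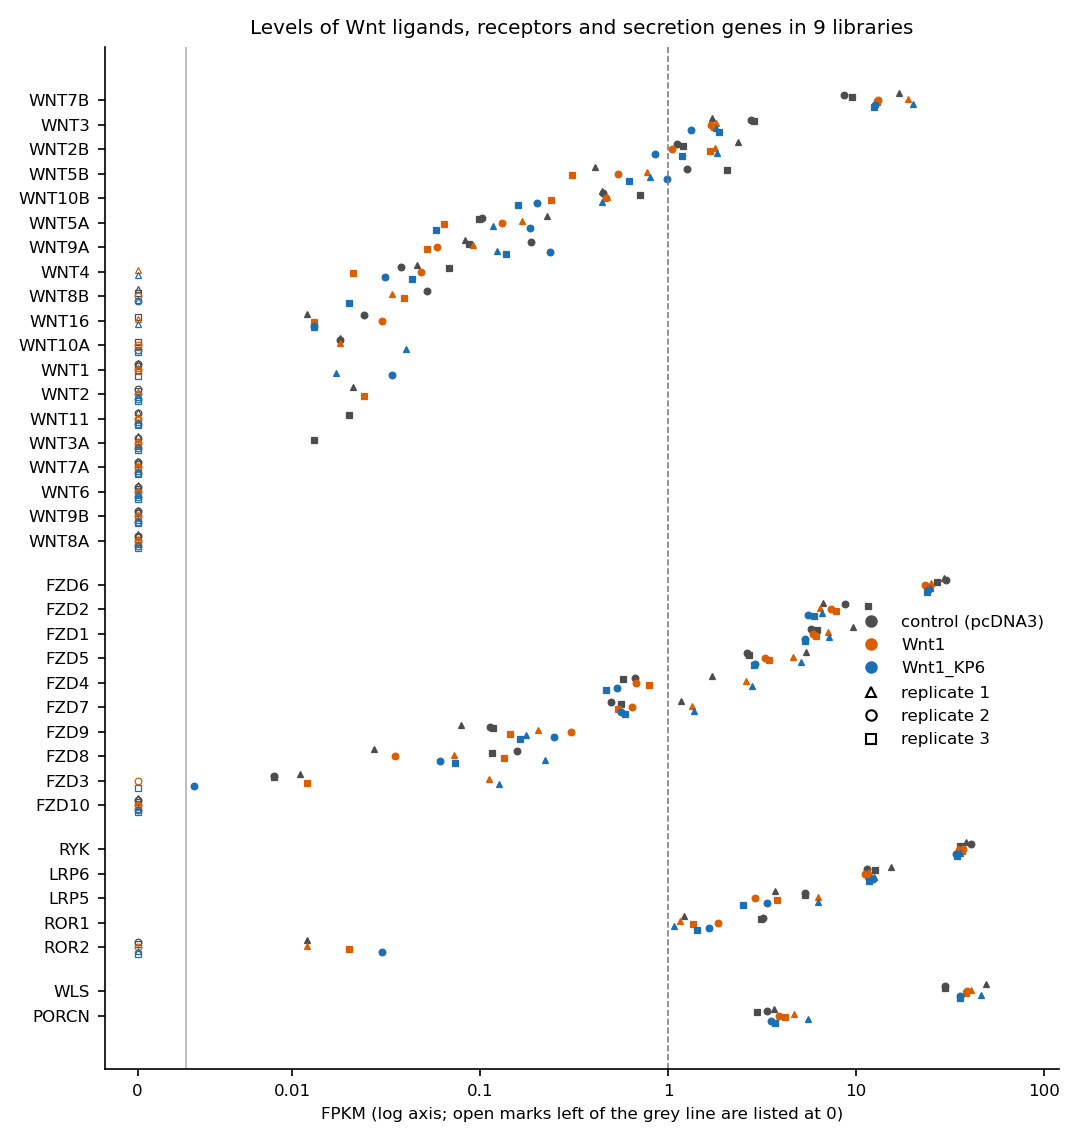
FPKM (log axis) of each of the 36 genes in each of the 9 libraries, by role, with color for the group and shape for the replicate. The dashed line marks 1 FPKM, and open marks on the left are values listed at 0. The 12 expressed genes lie wholly to the right of the dashed line, and 11 of 19 ligands sit at or near 0.

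Among the low genes, WNT2B (0.848 to 2.34 FPKM), FZD4 (0.465 to 2.78), WNT5B (0.309 to 2.05) and FZD7 (0.498 to 1.38) crossed 1 FPKM in some libraries only. WNT10B was at 0.158 to 0.704 FPKM, FZD9 at 0.079 to 0.302, WNT5A at 0.058 to 0.227, WNT9A at 0.052 to 0.235 and FZD8 at 0.027 to 0.221. WNT4, a ligand of nephron formation, and FZD3 had at most 7 and 8 counts. The deposited FPKM and counts together imply an effective length, which varied between libraries 7.43-fold for FZD3 and 2.97-fold for WNT5A. Of the genes above the floor, it also varied 1.64-fold for WNT10B, 1.46-fold for WNT5B and 1.35-fold for LRP6. For WNT2B, PORCN and LRP5 it varied 1.32-fold, 1.23-fold and 1.19-fold. The FPKM of all these genes, and shares and orders built on it, thus moved with this length as well as with the count.

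Each role was led by 1 gene. WNT7B, which in the kidney is known from the collecting duct, made up 57.2 to 79.6% of the summed FPKM of the 19 ligands. WNT3 followed at 7.07 to 19%, WNT2B at 5.14 to 10.5% and WNT5B at 1.81 to 12.4%. The share of WNT7B was 58.8% and 57.2% in control replicates 2 and 3, 76.1% in control replicate 1 and 75.1 to 79.6% in the 6 libraries labelled Wnt1 or Wnt1_KP6. FZD6, a Frizzled known from planar cell polarity, held 51.2 to 61.9% of the Frizzled sum, ahead of FZD2 (12.4 to 23.7%), FZD1 (11.8 to 17.9%) and FZD5 (5.39 to 10.6%). RYK held 63.0 to 70.0% of the sum of the other receptors, LRP6 18.8 to 26.0% and LRP5 4.99 to 11.5%. WLS gave 89.3 to 93.0% of the secretion sum. These sums ran from 14.6 to 25.2 FPKM for ligands, 39.3 to 53.8 for Frizzleds, 50.2 to 60.8 for the other receptors and 32.7 to 52.6 for the secretion genes.

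**Figure D2:**
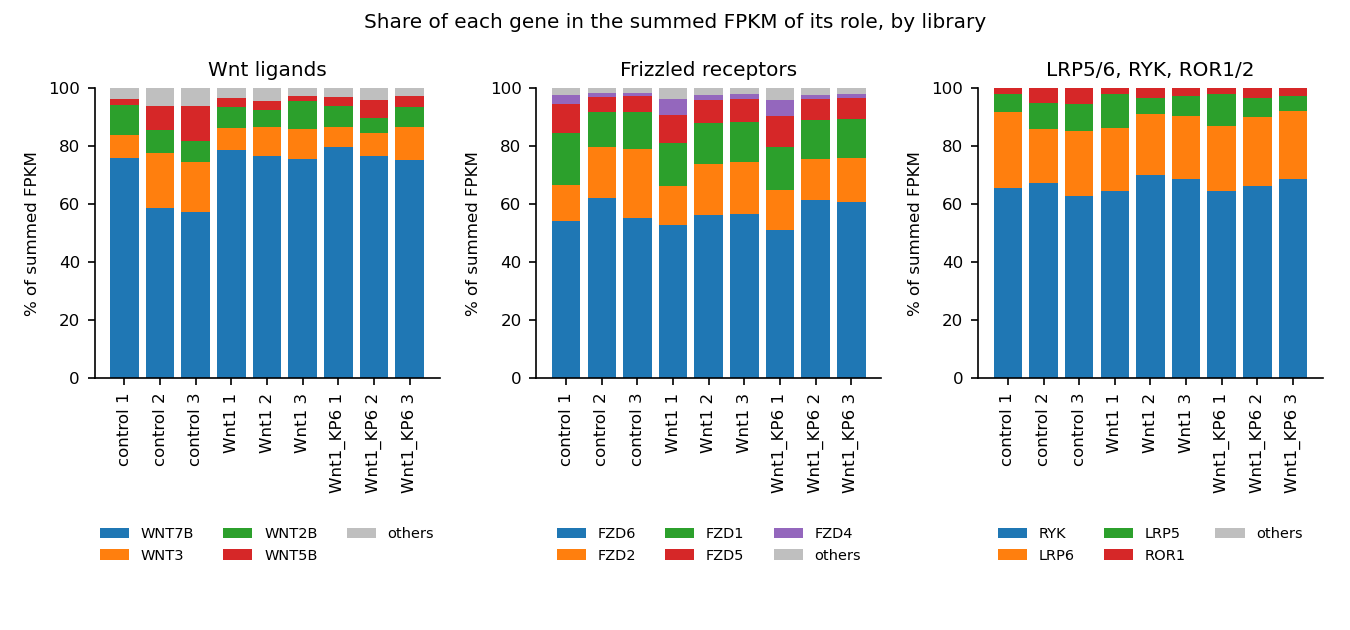
Share (%) of each gene in the summed FPKM of the ligands, the Frizzleds and the other receptors, 1 bar per library. WNT7B, FZD6 and RYK take the largest share of their role in every library, and the WNT7B share is below 60% only in control replicates 2 and 3 (58.8% and 57.2%).

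Close relatives differed in level. WNT7B was expressed while WNT7A was at 0, WNT3 was expressed while WNT3A had 1 count over all 9 libraries, and ROR1 was expressed at 1.08 to 3.21 FPKM while ROR2 did not exceed 3 counts. WNT5A and WNT5B were both low, and of the pair WNT10A and WNT10B only the latter exceeded 3 counts. LRP5 and LRP6 were both expressed. Estimated counts can divide reads between genes with common sequence, which leaves fractions. Every count of the relatives named here was a whole number in every library, so no such division shows in them. Whether whole reads went to the wrong relative was not tested. Within the set only WNT2B and FZD4 had fractional counts (509.55 and 340.67 in control replicate 1), and both partly lie opposite another gene, as given below.

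Of the ligand genes, 8 lie in 4 pairs separated by less than 100000 bases. WNT3 (chromosome 17, 46762506 to 46833154, minus strand) and WNT9B (46833201 to 46886730, plus strand) are divergent genes whose GENCODE extents lie 46 bases apart at their 5′ sides. Their RefSeq starts lie farther apart, with the 250 bases before them at 46818693 to 46818942 for WNT3 and 46851333 to 46851582 for WNT9B. WNT3 had 1450 counts over the 9 libraries where WNT9B had 0. WNT10B and WNT1 on chromosome 12 are 6689 bases apart, with 181 and 3 counts. WNT9A and WNT3A on chromosome 1 are 59152 bases apart, with 106 counts and 1 count. WNT6 and WNT10A on chromosome 2 are 6129 bases apart, with 0 and 5 counts. In 3 of the 4 pairs 1 gene was thus above the floor of 3 counts per library and the other was not.

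Promoters are shown for 2 pairs of relatives with 1 expressed and 1 silent gene, and for a silent ligand whose promoter differs from theirs in base composition. The RefSeq promoter table (GRCh38.p14) held 27 of the 36 genes. Each sequence is the 250 bases before the RefSeq start, 5′ to 3′ on the gene's strand, with CpG dinucleotides, the sites of DNA methylation, in capitals. WNT3 is read from chr17:46818693-46818942 (minus strand), WNT3A from chr1:228006748-228006997 (plus), WNT8B from chr10:100462759-100463008 (plus), ROR1 from chr1:63773767-63774016 (plus) and ROR2 from chr9:91950229-91950478 (minus).
WNT3: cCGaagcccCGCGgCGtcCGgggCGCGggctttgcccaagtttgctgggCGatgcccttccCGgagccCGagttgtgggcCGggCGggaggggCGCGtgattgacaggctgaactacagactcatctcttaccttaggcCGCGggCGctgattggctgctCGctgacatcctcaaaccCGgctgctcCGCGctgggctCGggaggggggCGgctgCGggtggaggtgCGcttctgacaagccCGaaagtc
WNT3A: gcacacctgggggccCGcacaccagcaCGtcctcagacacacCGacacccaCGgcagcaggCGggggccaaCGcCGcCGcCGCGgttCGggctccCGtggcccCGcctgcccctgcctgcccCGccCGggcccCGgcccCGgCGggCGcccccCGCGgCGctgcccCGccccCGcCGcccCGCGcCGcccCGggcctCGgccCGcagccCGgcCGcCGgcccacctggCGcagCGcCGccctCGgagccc
ROR1: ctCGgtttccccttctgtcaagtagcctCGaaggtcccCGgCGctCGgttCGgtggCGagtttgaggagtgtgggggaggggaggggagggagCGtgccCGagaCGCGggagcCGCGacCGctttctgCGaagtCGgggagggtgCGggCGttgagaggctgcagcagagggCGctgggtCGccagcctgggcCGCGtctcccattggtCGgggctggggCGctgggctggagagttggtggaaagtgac
ROR2: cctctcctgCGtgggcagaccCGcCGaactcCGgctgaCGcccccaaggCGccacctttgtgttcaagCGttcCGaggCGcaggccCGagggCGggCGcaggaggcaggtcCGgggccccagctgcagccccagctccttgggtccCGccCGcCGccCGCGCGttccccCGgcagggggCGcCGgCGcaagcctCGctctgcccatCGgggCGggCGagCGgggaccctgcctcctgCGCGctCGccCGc
WNT8B: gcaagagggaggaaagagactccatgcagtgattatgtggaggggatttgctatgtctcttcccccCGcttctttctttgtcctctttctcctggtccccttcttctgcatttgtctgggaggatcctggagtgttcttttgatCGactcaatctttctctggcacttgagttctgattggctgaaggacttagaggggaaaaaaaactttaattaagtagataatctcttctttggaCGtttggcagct

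The expressed WNT3 and ROR1 had 26 and 24 CpG in this window, and their silent relatives WNT3A and ROR2 had 38 and 32. WNT8B, at 0 to 3 counts, had 3. Over the members with a promoter, the median was 28 CpG for the 8 expressed genes, 23.5 for the 8 low genes and 29 for the 11 at or under the floor, beside 11 over all 35116 promoters in the table. In these 27 promoters CpG number did not separate the expressed genes from the silent ones. The letters CTTTGAT, a core sequence read by TCF and LEF factors, were in 0 of the 27 windows on either strand and in 2.26% of all promoters. This says only that these letters are absent from these 250 bases.

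Comparisons were made over 3 pairs of groups: the libraries labelled Wnt1 against control, those labelled Wnt1_KP6 against those labelled Wnt1, and those labelled Wnt1_KP6 against control. By the labels, the first asks what followed the Wnt1 plasmid, and the second what followed KP6 in its presence. The comparisons against control share the control libraries and are not independent of each other. The filter on low counts left 21 of the 36 genes with a test (7 ligands, 8 Frizzleds, 4 other receptors and both secretion genes), within 13153 genes tested. A gene with counts in 1 group only can enter through that group, so counts over these 21 are descriptions.

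No gene of the set passed edgeR's quasi-likelihood test in any comparison (Benjamini-Hochberg adjusted p over all tested genes, threshold 0.05). In Wnt1 vs control 0 of 21 were called, against 0.122% of all genes, in Wnt1_KP6 vs Wnt1 0 of 21, against 0.0%, and in Wnt1_KP6 vs control 0 of 21, against 0.228%. At an unadjusted p under 0.05 the set had 3, 1 and 2 genes, beside 11.2%, 2.76% and 15.8% of all genes. DESeq2 called 1, 0 and 0, against 2.31%, 0.153% and 5.09% of all genes. Its single call was FZD6, lower in Wnt1 vs control, where it called 0.763% of all genes lower. With the replicate number as a block edgeR called 0, 0 and 0, against 0.722%, 0.0% and 1.13%. The median log2 fold change of the 21 was -0.15, 0.00 and -0.15, with all genes at 0.00, 0.00 and -0.01. Fold changes lay from -1.07 to 1.08, from -0.46 to 1.33 and from -0.80 to 0.99.

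Libraries of the groups did not overlap in CPM for 4 of the 21 genes in Wnt1 vs control: FZD6 and RYK were lower in all 3 libraries labelled Wnt1, and FZD9 and PORCN higher. Over all genes 16.5% did not overlap in that comparison, 9.12% as lower and 7.34% as higher. In Wnt1_KP6 vs Wnt1 1 gene did not overlap (WNT9A, higher), against 6.93% of all genes and 1.66% as higher. In Wnt1_KP6 vs control 4 did not overlap (FZD6, FZD2 and RYK lower, FZD9 higher), against 17.8%, 11.8% as lower and 6.01% as higher. These shares of the set are near those of all genes. FZD9 and WNT9A had few counts and passed the filter through groups where they were higher, so their place here is a description.

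Of the ligands, WNT7B (chromosome 22, 45920362 to 45977129) was at 66.4, 33.7 and 36.7 CPM in control replicates 1, 2 and 3, in the order used throughout, 74.2, 51.7 and 50.7 in the Wnt1 group and 79.0, 49.9 and 48.0 in the Wnt1_KP6 group. Replicate 1 was the highest library of each group, and each library labelled Wnt1 or Wnt1_KP6 was above the control library of the same number. The means were 45.6 ± 18.1 CPM (SD, n = 3), 58.9 ± 13.3 and 59.0 ± 17.4. Its log2 fold change was 0.40 ± 0.28 (SE) in Wnt1 vs control (edgeR adjusted p = 0.639) and 0.45 ± 0.28 in Wnt1_KP6 vs control (edgeR adjusted p = 0.489), values given after they were seen. With the replicate number as a block the adjusted p was 0.112 and 0.0697. Leaving out 1 library moved the first value from 0.21 (without Wnt1 replicate 1) to 0.75 (without control replicate 1, edgeR adjusted p = 0.0918). It moved the second from 0.23 (without Wnt1_KP6 replicate 1) to 0.80 (without control replicate 1, edgeR adjusted p = 0.0648).

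WNT3, a ligand that acts through beta-catenin, was at 5.64, 9.09 and 9.37 CPM in control, 5.89, 5.57 and 5.72 in the Wnt1 group and 5.86, 4.34 and 6.13 in the Wnt1_KP6 group. Control replicates 2 and 3 were above all other libraries, and control replicate 1 lay among those of the groups labelled Wnt1 and Wnt1_KP6. The log2 fold change was -0.47 ± 0.22 in Wnt1 vs control (edgeR adjusted p = 0.477) and -0.49 ± 0.22 in Wnt1_KP6 vs control (edgeR adjusted p = 0.337). Without control replicate 1 it was -0.68 and -0.70, with edgeR adjusted p of 0.0491 and 0.0375. Within replicate 1 the differences were 0.09 and 0.09.

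WNT2B was at 18.8, 7.32 and 8.92 CPM in control, 12.1, 9.04 and 11.1 in the Wnt1 group and 12.9, 6.17 and 8.10 in the Wnt1_KP6 group. WNT5B was at 0.70, 2.54 and 3.91 CPM in control, 1.67, 1.18 and 0.501 in the Wnt1 group and 1.67, 1.47 and 1.35 in the Wnt1_KP6 group. For both genes every pair of groups overlapped, and control replicate 1 was the highest WNT2B library and the lowest control library for WNT5B. Opposite 21.2% of the WNT2B exon bases lies ST7L, which had 10.9 to 14.8 CPM, and reads of the pair cannot be told apart without strand. WNT5A, a ligand of beta-catenin-independent signalling, was at 1.33, 0.449 and 0.194 CPM in control, 0.763, 0.377 and 0.376 in the Wnt1 group and 0.448, 0.450 and 0.169 in the Wnt1_KP6 group. WNT10B was at 0.995, 1.01 and 0.968 CPM in control, 1.05, 0.849 and 0.501 in the Wnt1 group and 0.977, 0.450 and 0.338 in the Wnt1_KP6 group. Both overlapped between all groups, WNT10B through its replicate 1 libraries, which lay between 0.977 and 1.05 CPM.

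WNT9A was the ligand with the smallest p in Wnt1_KP6 vs Wnt1. It had 0.332, 0.748 and 0.349 CPM in control, 0.364, 0.236 and 0.209 in Wnt1 (10, 5 and 5 counts) and 0.488, 0.941 and 0.549 in Wnt1_KP6 (12, 23 and 13 counts). The libraries labelled Wnt1_KP6 were all above those labelled Wnt1, and the controls overlapped both. No library labelled Wnt1 was above the filter's minimum count of 10, so WNT9A entered the test through other libraries, mainly Wnt1_KP6. This separation is therefore a description. WNT9A had a log2 fold change of 1.33 ± 0.52 (edgeR adjusted p = 1, unadjusted p = 0.0285). It was 0.36 within replicate 1 and 1.81 over replicates 2 and 3.

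FZD6 (chromosome 8, 103298433 to 103332866) was at 104, 106 and 93.8 CPM in control, at 84.0, 79.2 and 79.7 in the libraries labelled Wnt1 and at 83.0, 81.4 and 81.7 in those labelled Wnt1_KP6. All 6 libraries labelled Wnt1 or Wnt1_KP6 were below all 3 control libraries, and these 2 groups overlapped each other. The mean was 101 ± 6.38 CPM (SD, n = 3) in control, 81.0 ± 2.63 in the Wnt1 group and 82.0 ± 0.845 in the Wnt1_KP6 group. The log2 fold change was -0.29 ± 0.08 (SE) in Wnt1 vs control (edgeR adjusted p = 0.209, DESeq2 adjusted p = 0.0178) and -0.22 ± 0.08 in Wnt1_KP6 vs control (edgeR adjusted p = 0.210, DESeq2 adjusted p = 0.0852). Within replicate 1 the Wnt1 vs control difference was -0.28, and over replicates 2 and 3 it was -0.30, so this gene had about the same difference in both sets of replicates.

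FZD2, a single-exon Frizzled, was at 25.1, 32.9 and 43.6 CPM in control, at 24.2, 27.8 and 29.5 in the libraries labelled Wnt1 and at 24.8, 20.9 and 22.5 in those labelled Wnt1_KP6. Control replicate 1 was close to the libraries of the other groups, and control replicates 2 and 3 stood above them. FZD2 had a log2 fold change of -0.21 ± 0.19 (edgeR adjusted p = 1) in Wnt1_KP6 vs Wnt1, the smallest p of any Frizzled there, and -0.50 ± 0.19 (edgeR adjusted p = 0.248) in Wnt1_KP6 vs control. Without control replicate 1 the latter was -0.69 with an adjusted p of 0.0266 in edgeR.

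FZD1 was at 66.4, 39.7 and 42.5 CPM in control, 48.6, 40.8 and 41.9 in the Wnt1 group and 49.1, 36.8 and 36.8 in the Wnt1_KP6 group. FZD5, a Frizzled that serves beta-catenin signalling in many epithelia, was at 37.9, 18.4 and 18.9 CPM in control, 32.5, 23.1 and 24.3 in the Wnt1 group and 35.9, 20.3 and 20.0 in the Wnt1_KP6 group. In both genes replicate 1 was the highest library of each group and the groups overlapped. FZD4 was at 12.6, 4.91 and 4.24 CPM in control, 19.1, 5.0 and 5.83 in the Wnt1 group and 20.6, 3.94 and 3.43 in the Wnt1_KP6 group. FZD7 was at 5.34, 2.28 and 2.56 CPM in control, 6.14, 2.92 and 2.46 in the Wnt1 group and 6.31, 2.58 and 2.70 in the Wnt1_KP6 group. Replicate 1 again stood above the others in every group, and the groups overlapped. Of the exon bases of FZD4, 18.9% lie opposite PRSS23, and the kit is not stated to keep strand. PRSS23 was at 63.2 CPM in control replicate 1 and at 163 to 175 CPM in control replicates 2 and 3, the reverse of the order in FZD4, and its part in the FZD4 counts was not tested.

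FZD9 and FZD8 had few counts. FZD9 was at 0.184, 0.262 and 0.271 CPM in control (5 to 7 counts), 0.473, 0.708 and 0.334 in Wnt1 (8 to 15 counts) and 0.407, 0.573 and 0.380 in Wnt1_KP6 (9 to 14 counts). All 6 libraries labelled Wnt1 or Wnt1_KP6 were above the 3 control libraries. No control library reached the filter's minimum count of 10, so FZD9 entered the test through the groups where it was higher. Its separation from control is therefore a description. FZD8 was at 0.111, 0.636 and 0.465 CPM in control, 0.291, 0.142 and 0.543 in the Wnt1 group and 0.895, 0.246 and 0.296 in the Wnt1_KP6 group, with full overlap. The log2 fold change of FZD9, a gene named here after its values were seen, was 1.08 ± 0.46 in Wnt1 vs control (edgeR adjusted p = 0.416) and 0.99 ± 0.46 in Wnt1_KP6 vs control (edgeR adjusted p = 0.338).

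Among the other receptors, RYK was at 103, 106 and 94.1 CPM in control, 91.2, 93.4 and 92.4 in the Wnt1 group and 91.4, 87.4 and 90.5 in the Wnt1_KP6 group. The libraries labelled Wnt1 or Wnt1_KP6 were below the controls, by less than 1 CPM at the closest point (93.4 against 94.1). The log2 fold changes, given after they were seen, were -0.10 ± 0.08 and -0.09 ± 0.08 against control (edgeR adjusted p = 0.684 and 0.648). LRP6 was at 135, 95.4 and 87.2 CPM in control, 99.0, 91.8 and 89.6 in the Wnt1 group and 99.6, 80.7 and 90.2 in the Wnt1_KP6 group, with overlap throughout and the highest value in control replicate 1. LRP5, the other beta-catenin co-receptor, was at 19.2, 26.9 and 27.7 CPM in control, 29.8, 13.9 and 16.4 in the Wnt1 group and 30.9, 15.4 and 13.0 in the Wnt1_KP6 group. In replicate 1 the libraries of these groups were above control, by 0.67 (Wnt1) and 0.72 (Wnt1_KP6) on the log2 scale. In replicates 2 and 3 they were below it, with log2 fold changes of -0.82 ± 0.11 and -0.84 ± 0.11.

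ROR1 (chromosome 1, 63774022 to 64181498), a receptor best known for binding WNT5A, was at 5.71, 14.6 and 14.2 CPM in control, 4.84, 7.59 and 5.97 in the Wnt1 group and 4.92, 7.37 and 6.42 in the Wnt1_KP6 group. Control replicates 2 and 3 were well above every other library, and control replicate 1 lay within the range of the libraries labelled Wnt1 or Wnt1_KP6. The mean was 11.5 ± 5.02 CPM (SD, n = 3) in control, 6.13 ± 1.39 in the Wnt1 group and 6.24 ± 1.23 in the Wnt1_KP6 group. The log2 fold change was -0.89 ± 0.36 in Wnt1 vs control (edgeR adjusted p = 0.407), 0.09 ± 0.37 in Wnt1_KP6 vs Wnt1 (edgeR adjusted p = 1) and -0.80 ± 0.36 in Wnt1_KP6 vs control (edgeR adjusted p = 0.331). Without control replicate 1 the values against control were -1.22 and -1.14, with edgeR adjusted p of 0.0250 and 0.0275. Within replicate 1 they were -0.21 and -0.17.

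Of the secretion genes, PORCN (chromosome X, 48508962 to 48520814) was at 5.53, 5.35 and 4.61 CPM in control, 8.29, 5.85 and 6.35 in the Wnt1 group and 8.34, 5.36 and 5.32 in the Wnt1_KP6 group. The libraries labelled Wnt1 were all above the controls, and those labelled Wnt1_KP6 overlapped both. For PORCN the log2 fold change was 0.43 ± 0.20 in Wnt1 vs control (edgeR adjusted p = 0.461), -0.06 ± 0.20 in Wnt1_KP6 vs Wnt1 (edgeR adjusted p = 1) and 0.37 ± 0.20 in Wnt1_KP6 vs control (edgeR adjusted p = 0.421). WLS (chromosome 1, 68098473 to 68233120) was at 122, 72.5 and 73.8 CPM in control, 103, 91.1 and 93.6 in the Wnt1 group and 110, 87.4 and 86.7 in the Wnt1_KP6 group. Control replicate 1 was the highest library and control replicates 2 and 3 were the lowest. Without control replicate 1 the log2 fold change of WLS was 0.40 in Wnt1 vs control and 0.43 in Wnt1_KP6 vs control, with edgeR adjusted p of 0.0443 and 0.0291. With all libraries it was 0.13 ± 0.18 and 0.16 ± 0.18.

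**Figure D3:**
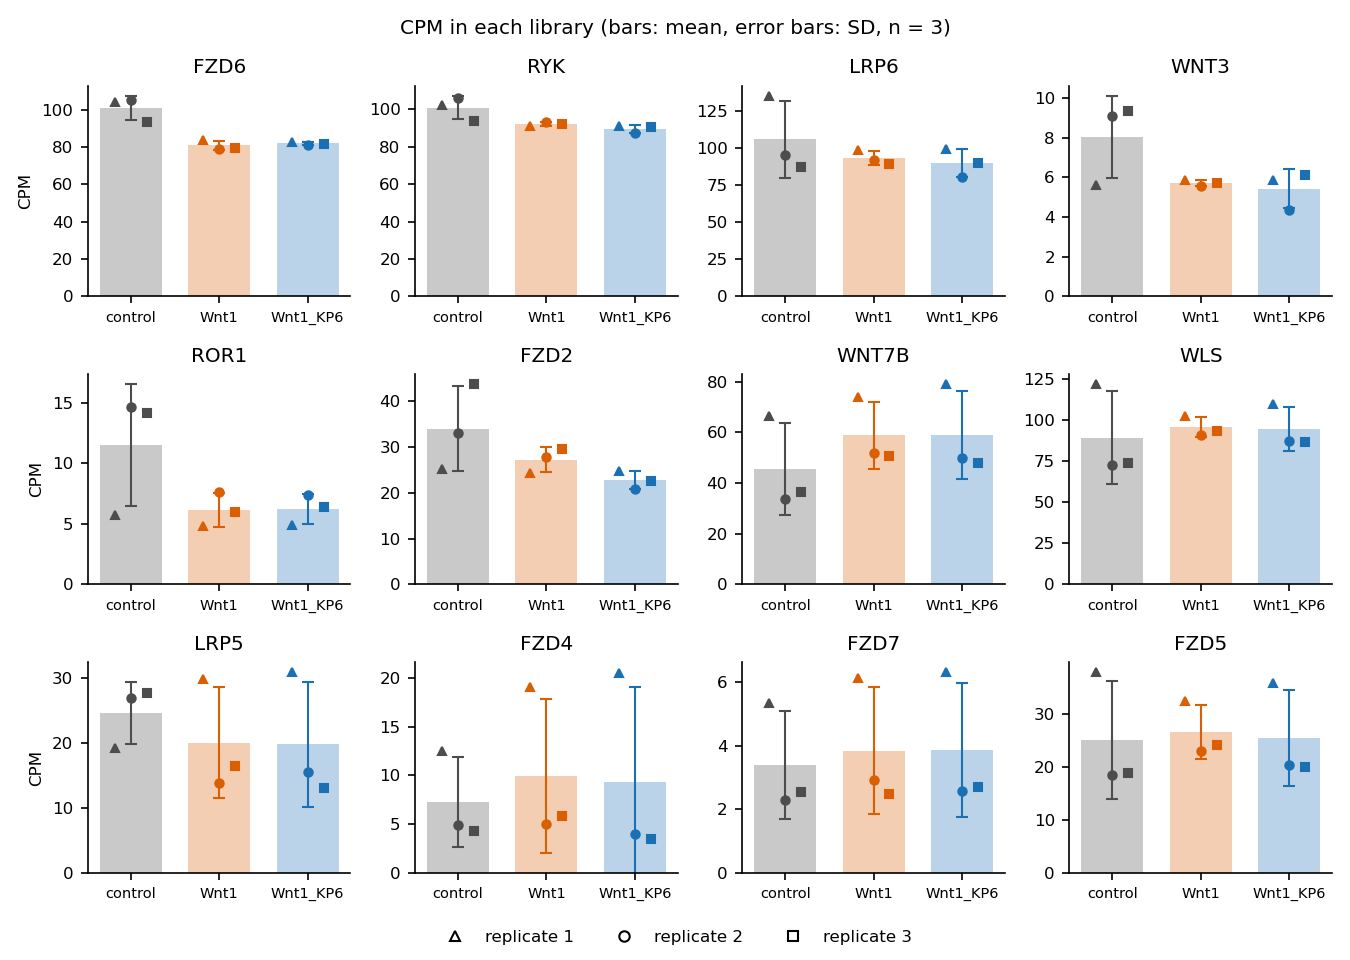
CPM of 12 receptor, ligand and secretion genes in each library, with bars for the group mean, error bars for the SD (n = 3, cut at 0 for FZD4) and shapes for the replicate number. FZD6 and RYK have all libraries labelled Wnt1 or Wnt1_KP6 below the controls, and in WNT7B, FZD4, FZD5 and FZD7 replicate 1 is the highest library of every group.

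Replicate 1 differed from replicates 2 and 3 in many of these genes. It was above both in all 3 groups for 9 of the 21 tested genes (WNT2B, WNT7B, FZD1, FZD4, FZD5, FZD7, LRP6, PORCN and WLS), against 22% of all tested genes. It was below both in all 3 groups for 1 (ROR1), against 10.6%. Among these 9 genes the distance was greatest in FZD4, at 1.40, 1.77 and 2.35 on the log2 CPM scale in control, Wnt1 and Wnt1_KP6, and FZD7 had 1.07, 1.13 and 1.12. FZD6 and RYK differed by at most 0.09 in any group.

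With replicates 2 and 3 alone, edgeR called 9 of the 21 genes in Wnt1 vs control, against 31.3% of all genes. WNT7B, FZD5 and WLS were higher, where 16.1% of all genes were called higher, and WNT3, WNT5B, FZD2, FZD6, LRP5 and ROR1 were lower, where 15.2% were. In Wnt1_KP6 vs control 8 were called, against 40.1%: WNT7B and WLS higher (20.8% of all genes) and WNT3, WNT5B, WNT10B, FZD2, LRP5 and ROR1 lower (19.3%). In Wnt1_KP6 vs Wnt1 none was called, with edgeR over these 6 libraries calling 8.44% of all genes. So many genes of the table were called in this smaller fit that the calls against control do not set the Wnt genes apart. Leaving out control replicate 1 alone gave 3 calls in Wnt1 vs control, against 6.73% of all genes (WLS higher, 3.97% of all genes, and WNT3 and ROR1 lower, 2.76%) and 4 in Wnt1_KP6 vs control, against 9.15% (WLS higher, 5.46%, and WNT3, FZD2 and ROR1 lower, 3.69%). None of the other 8 omissions of a single library gave a call in the set.

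**Figure D4:**
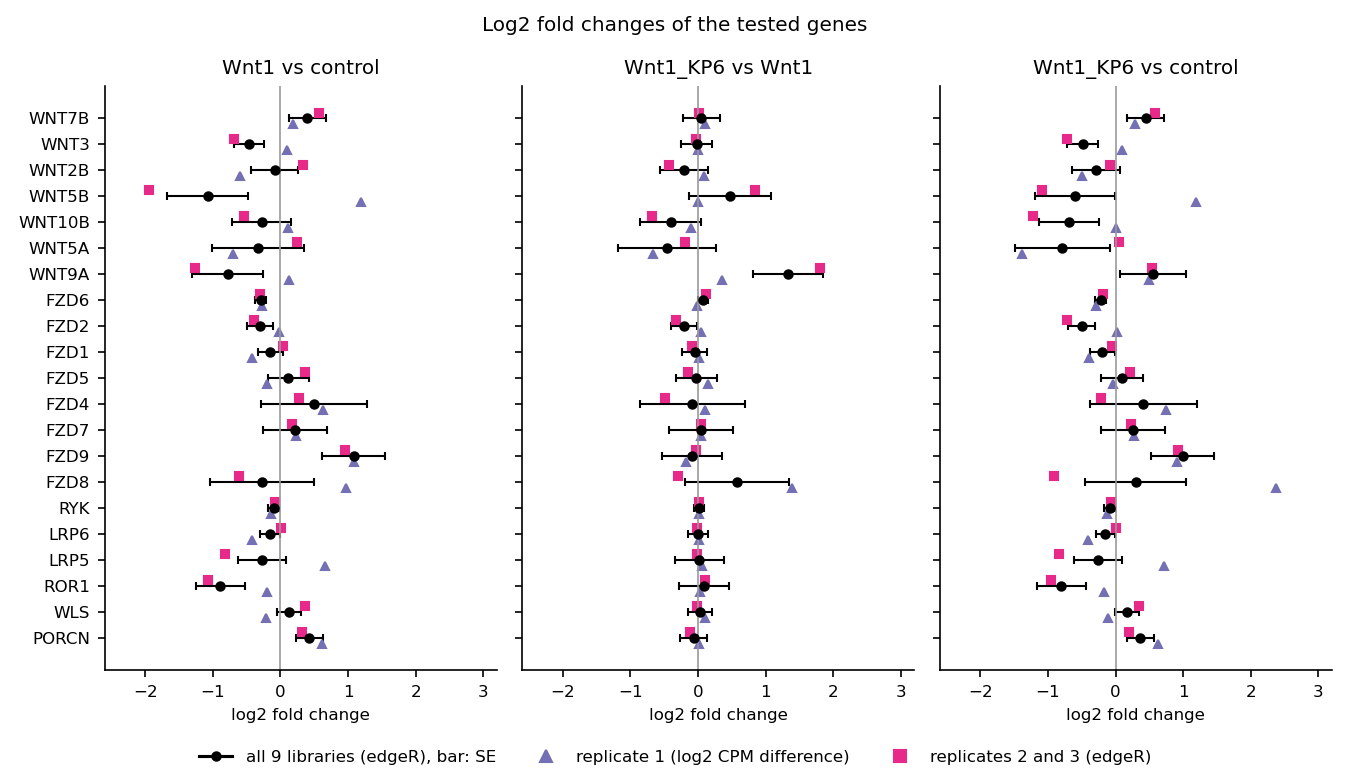
Log2 fold changes of the 21 tested genes in the 3 comparisons: black points are the edgeR fit of all 9 libraries with bars for 1 SE, triangles the log2 CPM difference within replicate 1, and squares the edgeR fit of replicates 2 and 3. FZD6 has all 3 marks together below 0 against control, while LRP5, WNT3 and WNT5B have the triangle and the square on opposite sides of 0. In Wnt1 vs control the same holds for WNT2B, WNT5A, WNT9A, WNT10B, FZD1, FZD5, FZD8, LRP6 and WLS. In Wnt1_KP6 vs Wnt1 most marks lie near 0.

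The rest of the pathway was read from 6 lists, some of which share genes (DKK1, ZNRF3, LEF1 and others are also feedback targets). edgeR over 9 libraries called 0 genes of any list in any comparison. The counts at an unadjusted p under 0.05 that follow are to be read beside 11.2%, 2.76% and 15.8% of all genes in the 3 comparisons in turn. Of the secreted and membrane antagonists, 7 of 21 were tested, with 0, 0 and 1 at an unadjusted p under 0.05, no DESeq2 call and a median log2 fold change of -0.17, -0.25 and -0.32 in the 3 comparisons, beside 0.00, 0.00 and -0.01 over all genes. DKK3 (91.5 ± 24.8 CPM in control, 74.8 ± 15.0 in the Wnt1 group and 70.7 ± 14.2 in the Wnt1_KP6 group) had the smallest p in Wnt1 vs control, at a log2 fold change of -0.27 ± 0.23 (edgeR adjusted p = 0.720). KREMEN2, which removes LRP6 from the surface together with DKK1, was at 8.81 ± 1.57, 7.84 ± 0.547 and 6.37 ± 0.977 CPM, with -0.39 ± 0.17 in Wnt1_KP6 vs control (edgeR adjusted p = 0.306). DKK1 was at 7.01 ± 4.93, 8.38 ± 5.21 and 13.9 ± 9.86 CPM. In Wnt1_KP6 vs control its log2 fold change was 1.09 ± 0.92 (edgeR adjusted p = 0.632), and blocking by replicate number gave an edgeR adjusted p of 0.0400, where 1.13% of all genes were called.

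R-spondins raise Frizzled and LRP6 at the surface by holding off the ligases RNF43 and ZNRF3. Of this list 3 of 9 were tested, with 1, 0 and 1 at an unadjusted p under 0.05 (11.2%, 2.76% and 15.8% of all genes). RSPO3 was at 1.06 ± 0.453 CPM in control, 2.97 ± 0.826 in the Wnt1 group and 3.15 ± 0.390 in the Wnt1_KP6 group. Its log2 fold change was 1.51 ± 0.34 in Wnt1 vs control (edgeR adjusted p = 0.152, DESeq2 adjusted p = 0.0058) and 1.65 ± 0.34 in Wnt1_KP6 vs control (edgeR adjusted p = 0.0766, or 0.0496 when blocked by replicate number). DESeq2 called RSPO3 in both of these comparisons and no other gene of the list, where it called 2.31% and 5.09% of all genes. DESeq2 gave no adjusted p for LGR4. ZNRF3 was at 28.7 ± 3.98, 29.5 ± 2.93 and 33.2 ± 4.62 CPM. The R-spondin receptor LGR4 was at 41.8 ± 53.3, 44.0 ± 34.5 and 42.6 ± 30.1 CPM, with an SD above the mean in control.

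Of 20 planar cell polarity and surface partners 17 were tested, with 0, 0 and 0 at an unadjusted p under 0.05, no DESeq2 call, and medians of -0.04, 0.01 and -0.03. PRICKLE3 (0.48 ± 0.23, edgeR adjusted p = 0.461) had the smallest p in Wnt1 vs control, and the heparan sulphate proteoglycan SDC4 (0.63 ± 0.30, edgeR adjusted p = 0.356) in Wnt1_KP6 vs control. Of 11 symbols listed as secretion and folding partners, 10 were in the deposited table and 9 were tested. None was at an unadjusted p under 0.05 in any comparison, with no DESeq2 call and medians of 0.00, 0.01 and 0.02. MESD, the chaperone that LRP5 and LRP6 need to fold, had the smallest p against control, at -0.12 ± 0.07 in both Wnt1 (edgeR adjusted p = 0.605) and Wnt1_KP6 (edgeR adjusted p = 0.487).

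Of 29 intracellular transducers 27 were tested, with 1, 1 and 4 at an unadjusted p under 0.05 (11.2%, 2.76% and 15.8% of all genes) and medians of 0.04, 0.06 and 0.10. DVL2, a Dishevelled protein that Frizzleds recruit, was at 56.3 ± 6.05 CPM in control, 70.0 ± 1.59 in the Wnt1 group and 71.2 ± 4.55 in the Wnt1_KP6 group. Its log2 fold change was 0.34 ± 0.09 in Wnt1 vs control (edgeR adjusted p = 0.205, DESeq2 adjusted p = 0.0316) and 0.42 ± 0.09 in Wnt1_KP6 vs control (edgeR adjusted p = 0.0796, DESeq2 adjusted p = 0.0019). It was the single transducer that DESeq2 called in each of these comparisons, beside 2.31% and 5.09% of all genes. TCF7L2, a nuclear partner of beta-catenin, had 0.22 ± 0.09 in Wnt1_KP6 vs Wnt1 (edgeR adjusted p = 1).

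Of 27 feedback and target genes 18 were tested, with 1, 3 and 5 at an unadjusted p under 0.05 (11.2%, 2.76% and 15.8% of all genes) and medians of 0.14, 0.11 and 0.34. DESeq2 called 1, 0 and 3 of them, all higher (BAMBI in both comparisons against control, JUN and SOX9 in Wnt1_KP6 vs control), against 2.31%, 0.153% and 5.09% of all genes. It gave no adjusted p for MMP7. BAMBI, a pseudoreceptor that beta-catenin induces, was at 1.33 ± 0.119 CPM in control, 3.72 ± 0.343 in the Wnt1 group and 3.43 ± 1.08 in the Wnt1_KP6 group. Its log2 fold change was 1.51 ± 0.28 in Wnt1 vs control (edgeR adjusted p = 0.109, or 0.0466 when blocked) and 1.45 ± 0.28 in Wnt1_KP6 vs control (edgeR adjusted p = 0.0691, or 0.0471 when blocked). JUN was at 109 ± 16.9, 214 ± 22 and 507 ± 289 CPM and SOX9 at 6.88 ± 2.58, 11.5 ± 6.66 and 25.2 ± 6.18 CPM. In Wnt1_KP6 vs control JUN had a log2 fold change of 2.31 ± 0.47 (edgeR adjusted p = 0.0796). SOX9 had 1.97 ± 0.42 there (edgeR adjusted p = 0.0878). Within replicate 1 these differences were 0.94 and 0.91, and over replicates 2 and 3 they were 2.61 and 2.51. Wnt1_KP6 vs Wnt1 gave 1.32 ± 0.46 for JUN and 1.20 ± 0.41 for SOX9 (edgeR adjusted p = 1 for both), from -0.12 and -0.08 within replicate 1 and 1.65 and 1.99 over replicates 2 and 3.

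The remaining target genes named were chosen after their values were seen. TNFRSF19, a receptor of the tumour necrosis factor family induced by beta-catenin, was at 46.4 ± 21.6 CPM in control, 19.6 ± 11.5 in the Wnt1 group and 28.8 ± 17.8 in the Wnt1_KP6 group. In Wnt1 vs control TNFRSF19 had a log2 fold change of -1.22 ± 0.71 (edgeR adjusted p = 0.574, or 0.0269 when blocked by replicate number), with -1.65 within replicate 1 and -1.14 over replicates 2 and 3. The blocked fit called 2, 0 and 3 of the 18 genes, against 0.722%, 0.0% and 1.13% of all genes: BAMBI higher and TNFRSF19 lower in Wnt1 vs control, and BAMBI, DKK1 and MYC higher in Wnt1_KP6 vs control. AXIN2 is part of the beta-catenin destruction complex, a feedback inhibitor of beta-catenin signalling and its most widely used readout. It was at 1.5 ± 0.811, 1.38 ± 0.859 and 0.749 ± 0.904 CPM. The differences for AXIN2 were -0.09 ± 0.77, -0.86 ± 0.80 and -0.94 ± 0.80 on the log2 scale in the 3 comparisons (edgeR adjusted p = 0.985, 1 and 0.630). SP5, a transcription factor induced by beta-catenin, was at 3.79 ± 0.944, 2.71 ± 0.481 and 2.28 ± 0.925 CPM, and its log2 fold changes were -0.46 ± 0.31, -0.21 ± 0.31 and -0.67 ± 0.31 (edgeR adjusted p = 0.625, 1 and 0.338). Neither AXIN2 nor SP5 was called in any comparison by edgeR over 9 libraries, with or without the block, or by DESeq2. With replicates 2 and 3 alone, edgeR called AXIN2 lower in Wnt1_KP6 vs Wnt1 (-1.85, adjusted p = 0.0259). The same fit called AXIN2 (-2.05, adjusted p = 0.0029) and SP5 (-1.19, adjusted p = 0.00095) lower in Wnt1_KP6 vs control. It called 8.44% and 40.1% of all genes in these 2 comparisons. Within replicate 1 the differences were -0.38, -0.39 and 0.26 in turn.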

How the data were processed

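Genes and lists were chosen with earlier results of these data known. Tools named in the submitters' processing notes are RSEM, StringTie 1.3.1, HISAT2, Bowtie2 2.2.8 and fastp 0.18.0, with build hg38. For each tool its step, and for the table its annotation, is not given in the sources used here. Each gene has, in the table the authors deposited, an expected count and an FPKM value (scaled by the authors to length and library size) per library, per the file headers, and 87.6% of counts were whole. Coordinates are from GENCODE release 29, which held 20171 of 20323 gene IDs.

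Counts were rounded, filtered with filterByExpr (minimum count 10, total 15) and fitted with edgeR 4.0.16 (R 4.3.3): TMM factors, robust quasi-likelihood test, 3 group means over 9 libraries, no block, two-sided. The fit was tested on simulated data without a replicate effect, which does not show how it behaves where replicate 1 stands apart. "Called" means an adjusted p under 0.05. DESeq2 1.42.0 and limma 3.58.1 (log2 of FPKM plus 1 or 0.1) were alternatives. Per-library CPM use total counts. The 3-count floor covers counting error only. Libraries with the same number in different groups deviated from their group means together (correlations across tested genes 0.110 to 0.672 in 9 pairs, 0.0599 to 0.685 on log2(CPM + 1)), so the replicate numbers in the titles were treated as pairs in the block fit. Differently numbered libraries had -0.553 to 0.398 over 18 pairs (-0.634 to 0.573 on log2(CPM + 1)), with replicates 2 and 3 correlating with each other too, so the numbers set replicate 1 apart more than they part 2 from 3. No replicate pair agreed within sampling noise, at which chi-square per degree of freedom would be near 1. Between replicates 2 and 3 it was 3.09 in Wnt1, 3.32 in Wnt1_KP6 and 13.4 in control. Between replicate 1 and the others of its group it was 54.3 to 142. Replicate 1 of Wnt1 and replicate 1 of Wnt1_KP6 were at 3.45. The SEs of the fit of replicates 2 and 3 rest on these close pairs.

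By a fixed rule, fold changes are named for called genes and the smallest p of each role per comparison, and for up to 4 genes per list; RYK, FZD9, WNT7B, LRP5 and WLS, FZD2 against control, and TNFRSF19, AXIN2, SP5 and MYC were added after their values were seen.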

Additional observations from a re-analysis of the deposited data

How the results depend on the processing

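Across 63 fold changes (21 genes, 3 comparisons), directions reversed in 0 with other (RLE) size factors, DESeq2, no filter or only the compared groups, in 1 with the replicate block, in 11 with replicates 2 and 3 only, in 7 and 8 with limma on FPKM (pseudocount 1 and 0.1), and in 2 to 10 when a library was left out. The cause was not tested. Low counts limit FZD8, FZD9, WNT5A and WNT9A.

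For Wnt1 vs control, Wnt1_KP6 vs Wnt1 and Wnt1_KP6 vs control in turn, 16, 0 and 30 genes of the table were called. DESeq2 called 302, 20 and 667, the replicate block 95, 0 and 149, the fit of only the compared groups 6, 0 and 0, and replicates 2 and 3 only 4115, 1110 and 5272; limma called 11 and 19 in the last comparison. With the replicate block 0 Wnt genes were called and it changed no call among them. DESeq2 called 1, 0 and 0 Wnt genes, and replicates 2 and 3 only 9, 0 and 8. The count of expressed genes, 12, was 21 by filterByExpr. Per list, replicates 2 and 3 only called 3, 1 and 5 antagonists, 2, 0 and 3 R-spondin genes, 5, 2 and 7 polarity partners, 1, 0 and 2 secretion partners, 5, 2 and 10 transducers, and 10, 8 and 16 targets. DESeq2 called 1, 0 and 1 R-spondin genes, 1, 0 and 1 transducers and 1, 0 and 3 targets. The replicate block called 1 antagonist and 1 R-spondin gene in the last comparison and 2, 0 and 3 targets.

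Leaving out 1 library at a time gave 0 to 3, 0 to 0 and 0 to 4 Wnt genes, and 0 to 885, 0 to 211 and 0 to 1204 genes of the table. Lists ranged 0 to 1 (R-spondin genes, polarity partners, transducers) and 0 to 2 (targets) in the first comparison, 0 to 1 (targets) in the second, and 0 to 1 (R-spondin genes), 0 to 2 (polarity partners, transducers) and 0 to 4 (targets) in the third. FZD5 ranged from -0.059 to 0.52 in Wnt1 vs control, and in Wnt1_KP6 vs Wnt1 PORCN ranged from -0.26 to 0.088 and ROR1 from -0.072 to 0.28. ROR1 was -0.039 and -0.061 there in limma (pseudocount 1 and 0.1). Summing rows of a gene was not run, since each gene has 1 row.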
